A study of Mus musculus with 2 samples.

Results

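The genes described here encode the machinery of oxidative phosphorylation. They were chosen by symbol alone: every feature starting with Nduf, Sdh, Uqcr, Cox4 to Cox8 or Atp5, and every mitochondrially encoded gene, prefix mt-. The rule found 113 of 28205 features. They are 83 subunits encoded in the nucleus, 13 mRNAs of the mitochondrial genome, 11 assembly factors (Ndufaf and Sdhaf), 4 pseudogenes of ATP synthase subunits, and Atp5s and Atp5sl. The 13 mRNAs are also all the features with the mt- prefix, so mitochondrial ribosomal and transfer RNAs are not counted here.

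The data are droplet single-cell mRNA counts (inDrops) from mouse bone marrow cells depleted of mature cells with antibodies to B220, Gr1, Ter119, CD4 and CD8. GFP+ cells, sorted as DAPI-GFP+ with no other marker, came from Mds1-GFP/+ Flt3-Cre mice, in which the loxP-flanked GFP cassette is lost from cells where Flt3-driven Cre has acted. The other component was wild-type: SLAM LT-HSCs, the long-term repopulating stem cells of the marrow, sorted as DAPI-Lin-cKit+Sca+CD48-CD150+. After mixing, 2 aliquots of that 1 pool, called aliquot 1 and aliquot 2, were counted separately. Nothing in the files assigns a droplet to a sort, mouse ages were not given in the sources used here, and with 1 pool every comparison below is between sets of cells of that pool, with no test between animals.

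Droplets with at least 500 unique molecular identifiers (UMIs) and at most 20% mt- UMIs were kept as cells, 1574 of 2147 barcodes in aliquot 1 and 1828 of 8662 in aliquot 2. They held 1640734 and 4027333 UMIs, with medians of 946.5 and 2071.5 per cell, so values from aliquot 2 are the more precise. The labels state 46 GFP cells after the submitters' own filter, while 71 kept cells had at least 1 GFP UMI, 41 of them exactly 1. Of the kept cells, 431 carried a barcode name that occurs in both files, and 55 names were kept in both. The labelled cell types were checked against markers in CPM (UMIs of the genes per 1e+06 UMIs of all genes). The LT-HSC markers other than Procr stood at 3342 CPM in cells with a Procr UMI and 2159 CPM in those without, and granulocyte markers at 2515 CPM in the latter.

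The respiratory chain moves electrons from NADH (complex I) and succinate (complex II) through complex III to oxygen at complex IV. The proton gradient built by complexes I, III and IV drives ATP synthase, also called complex V. The mitochondrial genome encodes a few core subunits of complexes I, III, IV and V, transcribed as long polycistronic RNAs that are cut apart, while complex II and all other subunits come from nuclear genes. Quiescent hematopoietic stem cells are known for relying on glycolysis more than cycling progenitors do, and for holding many mitochondria at low activity.

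On the plus strand 2 pairs of mitochondrial genes share a stretch of bases, and their levels can be read only with that in mind. The overlaps are shown in capitals with 12 flanking bases on each side, read 5′ to 3′ on the plus strand from the GENCODE vM21 transcripts of GRCm38. mt-Atp8 and mt-Atp6 share 43 bases (chrM:7927-7969), and mt-Nd4l and mt-Nd4 share 7 bases (chrM:10167-10173). Overlaps not shown are mt-Atp6 with mt-Co3, at base 8607 alone, and mt-Nd5 with mt-Nd6, which lies on the minus strand. mt-Nd5 ends at base 13565, and mt-Nd6 spans bases 13552 to 14070.
mt-Atp8 and mt-Atp6: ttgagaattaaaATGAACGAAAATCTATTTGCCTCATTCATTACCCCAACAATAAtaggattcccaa
mt-Nd4l and mt-Nd4: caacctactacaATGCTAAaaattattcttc
Within each pair shown the downstream gene, named second, took nearly all UMIs. mt-Atp6 stood at 364 times mt-Atp8 in CPM, and mt-Nd4 at 30.8 times mt-Nd4l. Both pairs are known to be made as bicistronic mRNAs, so the low values of mt-Atp8 and mt-Nd4l count reads assigned to them and not separate molecules. No label says how the authors assigned reads that fall in a shared stretch.

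Nuclear subunits are known targets of the factors NRF1, the ETS protein GABP and YY1. In RefSeq promoter windows (250 bases before to 50 after a start, GRCm38.p6), 68 of the 83 nuclear subunits had 73 windows. The NRF1 letters GCATGCGC, on either strand, occurred in 13.7% of those windows and in 2.71% of all 32851. The ETS letters CCGGAAG occurred in 21.9% against 8.86%, and the YY1 letters AAGATGGC in 13.7% against 2.75%. A match is a stretch of letters and not a measured site. Shown are the 100 bases before the outermost annotated start of 4 members on which the comparisons below turn, with matches in capitals. Ndufa11 (chr17:56717662-56717761, plus strand) and Cox5a (chr9:57521132-57521231, plus strand) were among the members highest in cycling cells. Ndufa6 (chr15:82354323-82354422, minus strand) was among the lowest in S phase cells and Uqcrh (chr4:116075072-116075171, minus strand) in G2/M cells, both with limits given below.
Ndufa11: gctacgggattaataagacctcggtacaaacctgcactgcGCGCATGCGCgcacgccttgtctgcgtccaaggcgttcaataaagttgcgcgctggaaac
Cox5a: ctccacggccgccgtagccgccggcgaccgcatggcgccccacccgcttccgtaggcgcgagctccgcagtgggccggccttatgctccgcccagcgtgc
Ndufa6: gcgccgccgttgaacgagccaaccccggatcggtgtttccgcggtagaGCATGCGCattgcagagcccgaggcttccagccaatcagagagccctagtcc
Uqcrh: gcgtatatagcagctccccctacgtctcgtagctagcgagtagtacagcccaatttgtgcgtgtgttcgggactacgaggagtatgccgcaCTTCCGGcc
The capitals in Ndufa11 are overlapping NRF1 matches on both strands, those in Ndufa6 are 1 NRF1 match, and those in Uqcrh are 1 ETS match on the opposite strand. Cox5a has no match to any of the 3 in the stretch shown.

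Summed over all kept cells, mitochondrial mRNAs gave 49211 CPM and nuclear subunits 13625 CPM. That is 3.61 mitochondrial UMIs for each nuclear subunit UMI, 3.84 in aliquot 1 and 3.52 in aliquot 2. In the median cell mitochondrial mRNAs took 5.27% of UMIs in aliquot 1 and 4.80% in aliquot 2. A CPM counts tagged molecules and is not divided by gene length, so levels of different genes are compared as numbers of UMIs. After every cell was thinned to 500 UMIs, the variance over the mean across cells was 2.64 for the mitochondrial sum and 1.38 for the nuclear sum. The means were 25.7 and 6.55 UMIs per cell, and the standard deviation over the mean was 0.321 and 0.459, the other order. Both measures depend on the mean, so they do not rank the 2 sums by how much they vary between cells.

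The mitochondrial mRNAs differed widely among themselves although all but mt-Nd6 lie on the same strand of the genome. mt-Co2 (11970 CPM in aliquot 1, 10982 in aliquot 2) and mt-Co1 (9037 and 7424 CPM), catalytic core subunits of complex IV, were among the 4 most abundant of all features. mt-Co3, the remaining core subunit of that complex, stood at 3330 and 3741 CPM. mt-Atp6, the proton channel subunit of ATP synthase, stood at 11753 and 10406 CPM, and mt-Cytb, the mitochondrial subunit of complex III, at 4461 and 3941 CPM. The membrane subunits of complex I ran from mt-Nd4 (4805 and 4672 CPM) and mt-Nd1 (3907 and 3860 CPM) through mt-Nd2 (1654 and 1546 CPM), mt-Nd3 (683 and 625 CPM) and mt-Nd5 (620 and 514 CPM) to mt-Nd4l (171 and 146 CPM). mt-Nd6, the member on the minus strand, had 66 UMIs in all, 9.75 and 12.4 CPM. Except for mt-Co3, mt-Nd6 and mt-Atp8 (25.6 and 31.3 CPM), each was higher in aliquot 1 than in aliquot 2.

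**Figure D1:**
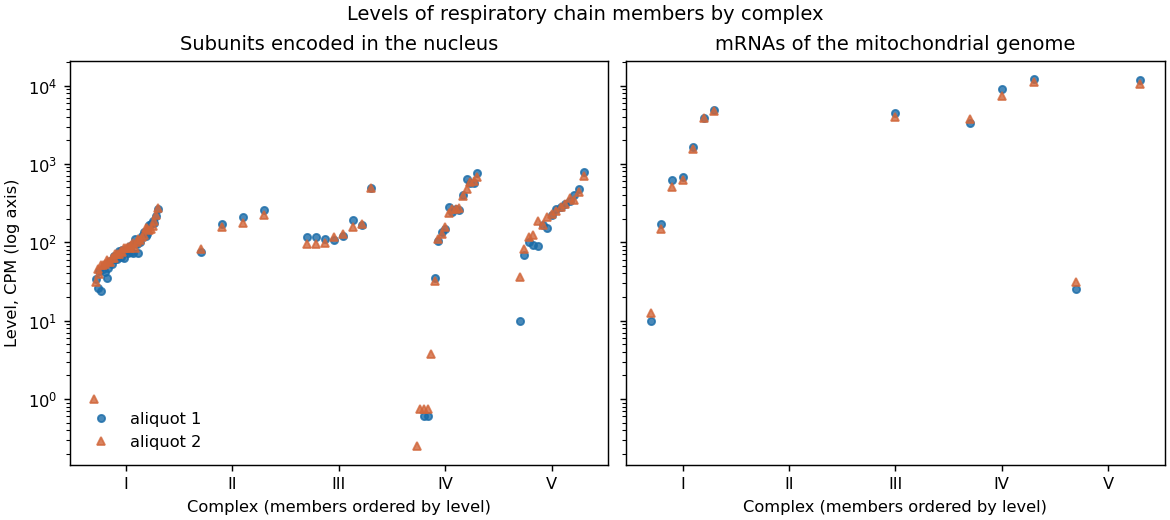
Level of each nuclear subunit (left) and mitochondrial mRNA (right) in CPM on a log axis, by complex, with 1 point per aliquot and members ordered by level within a complex. Members with no UMI in an aliquot are not drawn, and 76 nuclear members lie above 10 CPM while 8 mitochondrial mRNAs lie above 1000 CPM.

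Of the 83 nuclear subunits 82 had at least 1 UMI and 76 exceeded 10 CPM. These 76 ran from Atp5g2 (28.2 CPM) to Atp5a1, the alpha subunit of the ATP synthase head (733 CPM), a 25.9-fold range with a median of 122 CPM. By complex, the summed level was 3492 CPM for 37 members of complex I, 662 CPM for the 4 of complex II, 1368 CPM for the 8 of complex III, 4278 CPM for the 19 of complex IV and 3825 CPM for the 15 of complex V. Among members over 10 CPM the median was lowest in complex I, 83.0 CPM, and highest in complex IV, 265 CPM, with 228 CPM in complex V. The mitochondrial share was ordered differently: complex IV 22781 CPM from 3 genes, complex I 11513 CPM from 7, complex V 10826 CPM from 2 and complex III 4092 CPM from 1.

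In complex I the nuclear members ran from Ndufa6, an accessory subunit of the matrix arm (274 CPM), to Ndufv1, which binds NADH (32.1 CPM), apart from Ndufa4l2 at 0.706 CPM. Complex II is wholly nuclear. Sdha, its flavoprotein, stood at 261 and 226 CPM in the 2 aliquots, the iron-sulfur subunit Sdhb at 75 and 81.7 CPM, and the membrane anchors Sdhc and Sdhd at 171 and 156 CPM and at 210 and 176 CPM. In complex III the hinge protein Uqcrh (489 CPM) stood above the other 7, and the Rieske protein Uqcrfs1 was lowest (101 CPM). Among the 11 assembly factors the level ran from 8.82 CPM for Ndufaf1 to 54.9 CPM for Sdhaf2, which helps attach flavin to Sdha.

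Several subunits exist as paralogs, and the forms known from most tissues carried nearly all UMIs. Cox4i1, the common form of subunit 4, gave 706 CPM and Cox4i2, known from lung, 2.65 CPM. Cox6a1 gave 258 CPM and the muscle form Cox6a2 0.706 CPM, while Cox8a gave 594 CPM, Cox8c 0.529 CPM and Cox8b no UMI in either aliquot. Cox7b gave 131 CPM and Cox7b2 0.706 CPM, and Ndufa4, now placed in complex IV, 531 CPM against 0.706 CPM for Ndufa4l2. Cox6b2, known from testis, was the exception, at 34.7 and 31.8 CPM beside 267 and 264 CPM for Cox6b1. In the subunit 7a family Cox7a2l, which links complexes III and IV in supercomplexes, led with 570 and 582 CPM, Cox7a2 followed with 102 and 110 CPM, and the muscle form Cox7a1 had 1 UMI. Subunit c of ATP synthase came from Atp5g3 (397 and 345 CPM), Atp5g1 (154 and 211 CPM) and Atp5g2 (9.75 and 35.8 CPM).

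Atp5g2 was 1 of 6 members, with Atp5l, Ndufa12, Ndufa7, Ndufb4 and Ndufs3, that differed more than 1.5-fold between aliquots, all higher in aliquot 2. They are 6.32% of the 95 members with at least 100 UMIs. Among all genes at that floor, 734 of 7932 (9.25%) did so. Atp5l (89.0 and 188 CPM) and Atp5k have pseudogene copies in the feature list, Atp5l-ps2 with 34 UMIs and Atp5k-ps2 with 6, and Atp5l2-ps had none. No label says how the authors treated reads shared by near-identical copies, and levels of these genes are uncertain.

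The sum of the nuclear subunits was lower in cells with a higher mitochondrial share. Within each aliquot, cells were ranked by the percent of mt- UMIs and divided into 3 groups of near-equal size, low, middle and high, and nuclear subunits were expressed as CPM of nuclear UMIs, a total that holds no mt- UMI. In aliquot 1 the nuclear subunits stood at 14974, 14470 and 13657 CPM from the low to the high group, whose mt- UMIs were 3.85%, 5.25% and 6.99%. In aliquot 2 they stood at 15164, 14163 and 13314 CPM, at 3.67%, 4.79% and 6.21%. The order was the same in both aliquots and in cells under both cell cycle thresholds defined below: 14086, 13543 and 13145 CPM in aliquot 1, and 14185, 13348 and 12905 CPM in aliquot 2. Over all kept cells complexes I, IV and V followed this order in both aliquots. Complex III did not, at 1495, 1521 and 1474 CPM in aliquot 1 and 1407, 1385 and 1461 CPM in aliquot 2. Complex II was near level from low to middle, 783 and 784 CPM in aliquot 1 and 678 and 685 CPM in aliquot 2.

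Other quantities differed along the same groups. From low to high, LT-HSC markers stood at 1893, 2633 and 3594 CPM in aliquot 1 and at 1728, 2293 and 2981 CPM in aliquot 2. Genes of the S phase list stood at 5466, 4514 and 2983 CPM and at 5008, 4132 and 2524 CPM. Granulocyte markers were highest in the low group (7329 and 4263 CPM, against 619 and 480 CPM in the high group), and median UMIs per cell were 1028, 995 and 860 in aliquot 1 and 2257.5, 2177 and 1913 in aliquot 2. The part of these in the difference was not tested, beyond the values within cells under both thresholds.

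**Figure D2:**
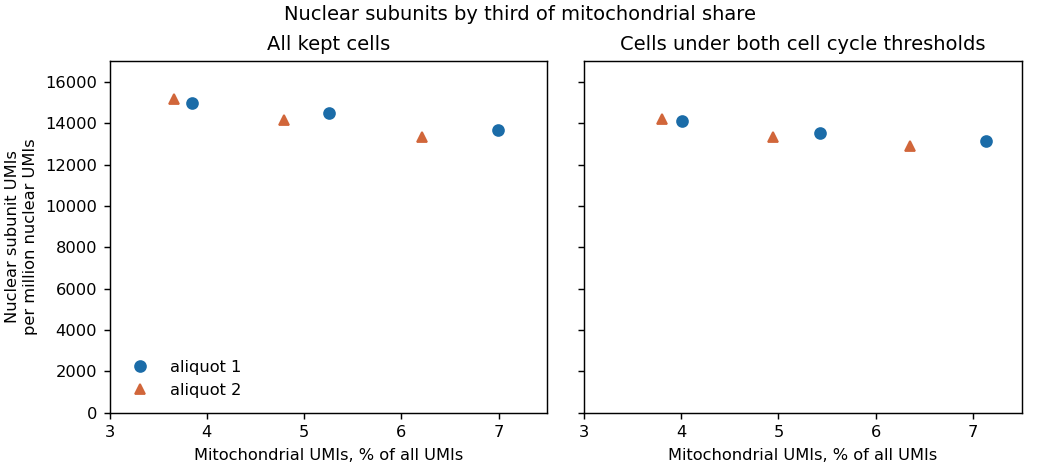
Nuclear subunit CPM of nuclear UMIs against the mitochondrial percent of all UMIs, for 3 groups of the cells of each aliquot ranked by that percent, in all kept cells (left) and in cells under both cell cycle thresholds (right). In each panel the group with the highest mitochondrial percent has the lowest nuclear value, 13657 and 13314 on the left and 13145 and 12905 on the right.

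Cells were next divided by cell cycle genes, after each was thinned to 500 UMIs so that depth alone could not decide the class. S phase cells had at least 5 UMIs of 39 DNA replication genes and fewer than 3 of 46 G2/M genes, G2/M cells had at least 3 of the latter, and both were set against the same comparison cells, under both thresholds. This gave 309 S phase, 391 G2/M and 2702 comparison cells. The classes are ranges of a count and not cell types: 143 cells had exactly 5 S phase UMIs and 207 had 4, and 88 had exactly 3 G2/M UMIs and 184 had 2. List genes were left out of the totals. Doublets were not removed.

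In S phase cells nuclear subunits were higher and mitochondrial mRNAs lower than in comparison cells. The nuclear sum was 16109 CPM against 12923 in aliquot 1 and 15966 against 12890 in aliquot 2. The ratio was 1.24 (95% counting interval 1.22 to 1.27), close in both aliquots. The mitochondrial sum was 50147 CPM against 54597 in aliquot 1 and 44217 against 49847 in aliquot 2, a ratio of 0.900 (0.889 to 0.911). Taken over nuclear UMIs only, a total that the mitochondrial mRNAs do not enter, the nuclear ratio was 1.23. All intervals here cover counting error only.

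By complex the nuclear ratio in S phase cells was 1.254 for I, 1.26 for II, 1.15 for III, 1.21 for IV and 1.29 for V, with every interval above 1. The mitochondrial ratio was 1.00 (0.977 to 1.03) for complex I, 0.941 for III, 0.869 for IV and 0.847 for V. Within complex I, mt-Nd1 stood at 4148 CPM against 3906 in aliquot 1 and 4405 against 3766 in aliquot 2, a ratio of 1.14 (1.09 to 1.18), while mt-Nd5 was at 0.870 times its comparison level. The mitochondrial members thus did not move as 1 block.

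Member by member, 76 of the 83 nuclear subunits reached the floor of 20 UMIs in the smaller cell set, found or expected from the other set. Called higher means at least 25% above the comparison level and called lower at least 20% below it, each on the same side of 1 in both aliquots. 39 nuclear subunits were higher, beside 22.7% of all 6335 genes that reached the floor, and 1 was lower, beside 23% of all genes. Their median log2 ratio was 0.39, against -0.01 over all genes, and 69 of the 76 lay above 1. By complex the higher members were 18 of 36 in I, 2 of 4 in II, 3 of 8 in III, 8 of 13 in IV and 8 of 15 in V. None of the 11 mitochondrial members that reached the floor was called. Of the 11 assembly factors 4 reached it, with Ndufaf2 and Ndufaf4 higher and Sdhaf4 lower.

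The highest was Cox5a, a nuclear subunit of the cytochrome oxidase core region (chr9:57521274-57532426). It stood at 466 CPM in S phase and 229 CPM in comparison cells of aliquot 1, and at 367 and 198 CPM in aliquot 2, a ratio of 1.93 (1.67 to 2.22). Ndufa4 stood at 782 and 531 CPM in aliquot 1 and at 710 and 413 CPM in aliquot 2, 1.64 times (1.48 to 1.82). Both members were higher in S phase cells of each aliquot than in comparison cells of either.

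Atp5g3, which encodes the proton-carrying subunit c, stood at 632 and 321 CPM in aliquot 1 and at 478 and 306 CPM in aliquot 2, 1.70 times (1.50 to 1.91). Uqcrq, a small subunit of complex III, was at 1.67 times (1.31 to 2.10), and at 1.09 times (0.677 to 1.67), no longer called, with stricter cell cycle thresholds that at most 5% of cells reached. Ndufa12, a matrix arm accessory subunit of complex I, was at 1.80 times (1.31 to 2.43). For Ndufa11, a membrane arm subunit, the ratio of 1.88 (1.34 to 2.59) came from aliquot 2: 40.1 against 38.8 CPM in aliquot 1, and 96.5 against 43.2 CPM in aliquot 2.

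Cox7a2l was the 1 nuclear subunit called lower. It stood at 486 CPM in S phase and 636 CPM in comparison cells of aliquot 1, and at 439 and 641 CPM in aliquot 2, 0.709 times (0.626 to 0.801). Ndufa6 was at 0.807 times (0.675 to 0.960), from 0.972 in aliquot 1 and 0.741 in aliquot 2. The other lowest members with enough UMIs were mitochondrial: mt-Atp6 at 0.846 times (0.824 to 0.869), mt-Co1 at 0.850 times (0.824 to 0.877) and mt-Co2 at 0.879 times (0.857 to 0.902).

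**Figure D3:**
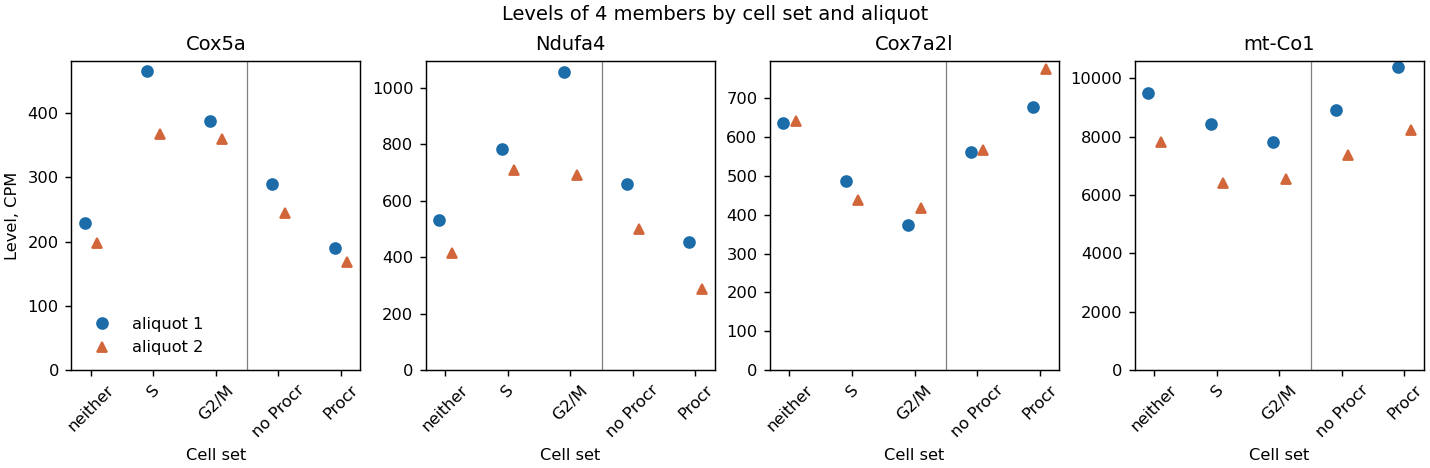
Level in CPM of Cox5a, Ndufa4, Cox7a2l and mt-Co1 in each aliquot (1 point each) for cells under both cell cycle thresholds, S phase and G2/M cells, and, right of the line, cells without and with a Procr UMI, where each panel starts at 0. Cox5a and Ndufa4 are highest in S phase and G2/M cells and lowest with Procr, and Cox7a2l and mt-Co1 show the opposite order.

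G2/M cells gave similar sums. The nuclear subunits stood at 15660 CPM against 12923 in aliquot 1 and 16018 against 12890 in aliquot 2, 1.23 times (1.21 to 1.26). Mitochondrial mRNAs stood at 47052 CPM against 54597 in aliquot 1 and 43025 against 49847 in aliquot 2, 0.865 times (0.856 to 0.874). G2/M over S phase cells, taken directly, the nuclear ratio was 0.994 (0.968 to 1.02) and the mitochondrial ratio 0.961 (0.946 to 0.976).

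Complex III stood apart in G2/M cells: its nuclear sum was 1453 CPM against 1396 in aliquot 1 and 1345 against 1332 in aliquot 2, 1.02 times (0.959 to 1.09). The nuclear sums of complexes I, II, IV and V were at 1.24, 1.19, 1.26 and 1.28 times, each with an interval above 1. Uqcrh, the most abundant member of complex III, stood at 410 against 514 CPM in aliquot 1 and at 411 against 514 CPM in aliquot 2, 0.80 times (0.713 to 0.895), and just inside the call, which another draw of the thinning ended at 0.862. Uqcrq of the same complex was at 1.6 times. Of the 8 members of complex III 7 lay above 1, all but Uqcrh. In complexes I, IV and V 31 of 36, 12 of 13 and 13 of 15 lay above 1.

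In G2/M cells 36 of 76 nuclear subunits were higher, beside 22% of all 7547 genes, and 3 were lower, beside 24.5%. The median log2 ratio was 0.34, against 0.00 over all genes. Among the 12 mitochondrial members at the floor, mt-Nd5 was called lower, at 458 against 663 CPM in aliquot 1 and 395 against 552 CPM in aliquot 2, 0.711 times (0.635 to 0.794). mt-Co1 was at 0.836 times (0.814 to 0.860) and mt-Cytb at 0.840 times (0.808 to 0.873), and mt-Nd1 was the member above 1, at 1.06 times, from 1.09 in aliquot 2 and 1.00 in aliquot 1. None of 6 assembly factors at the floor was called.

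Ndufa11 (chr17:56717767-56722141) had the highest ratio in G2/M cells: 88.7 CPM beside 38.8 CPM in aliquot 1 and 96.6 beside 43.2 CPM in aliquot 2, 2.24 times (1.70 to 2.94). Ndufa4 was at 1.81 times (1.65 to 1.97), Cox5a at 1.78 times (1.56 to 2.03) and the X-linked accessory subunit Ndufa1 at 1.78 times (1.42 to 2.22). Atp5k, subunit e at the dimer contact of ATP synthase, was at 1.69 times (1.48 to 1.94) and Ndufb7, a complex I accessory subunit, at 1.67 times (1.33 to 2.08). These ratios were above 1 in both aliquots. With the stricter thresholds Ndufa11 was at 1.46 times (0.890 to 2.28), below Ndufa4 at 1.59 and Ndufa1 at 1.51, and Ndufb7 was at 1.14 times (0.741 to 1.68) and no longer called.

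Cox7a2l was lowest, at 373 against 636 CPM in aliquot 1 and 418 against 641 CPM in aliquot 2, 0.632 times (0.563 to 0.706). The other 2 nuclear subunits called lower were Uqcrh and Ndufs3, an iron-sulfur arm subunit of complex I, at 0.642 times (0.401 to 0.987), from 24 UMIs in G2/M cells. For Sdhaf2 the ratio was 0.816, and its interval of 0.571 to 1.14 holds 1, whereas another draw of the thinning gave 0.560 (0.365 to 0.829).

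**Figure D4:**
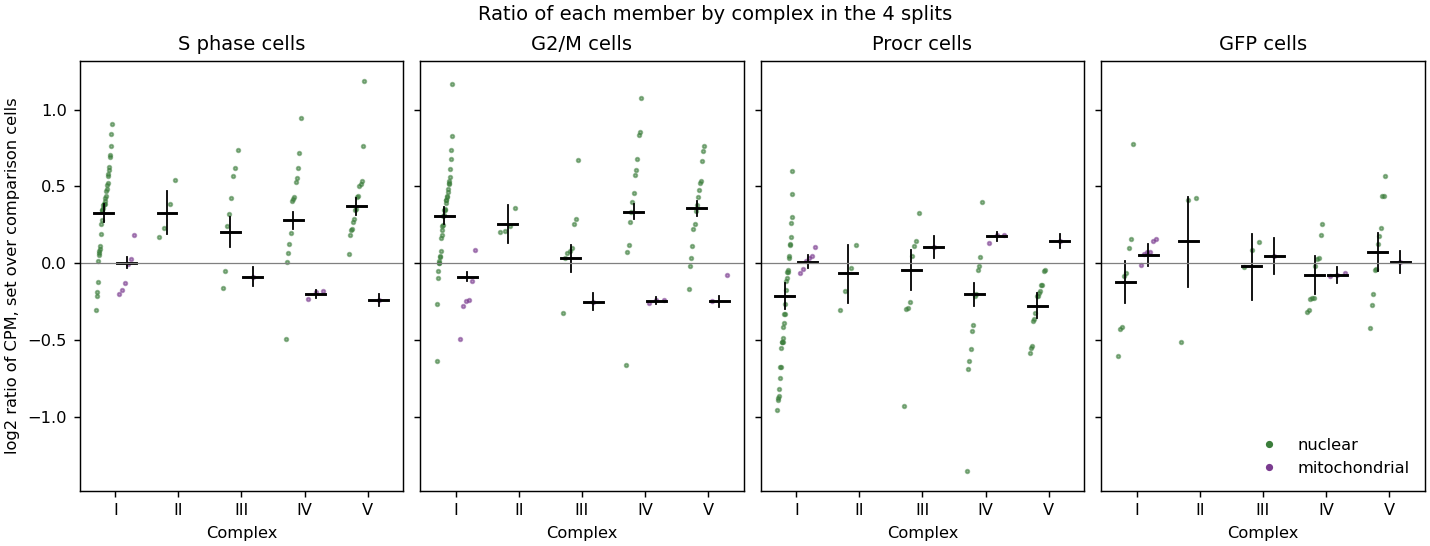
log2 ratio of CPM of each member that reached 20 UMIs (points, green nuclear and purple mitochondrial) by complex in the 4 splits, with the ratio of the complex sum (black bar) and its 95% counting interval (vertical line). Nuclear sums of all 5 complexes lie above 0 in S phase cells, mitochondrial sums of complexes III, IV and V lie below 0 in S phase and G2/M cells, and in cells with a GFP UMI most intervals include 0.

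Depth and other cell types moved with these classes. Median UMIs were 1700 in S phase, 1870 in G2/M and 1288 in comparison cells. When each S phase or G2/M cell was paired with the comparison cell nearest in UMI total, an alternative added after the first values were seen, the nuclear ratio was 1.15 in S phase and 1.12 in G2/M cells, and the mitochondrial ratio 0.936 and 0.925. The pairing was closer for S phase (medians 1700 and 1664) than for G2/M cells (1870 and 1657). The number of nuclear subunits called higher was then 20 of 76 in S phase, beside 20.3% of all genes, and 18 of 76 in G2/M, beside 19.1%, while 67 and 54 of the 76 lay above 1. With paired cells Cox5a was at 1.65 and 1.37 times, Ndufa4 at 1.3 and 1.42 times, Ndufa11 at 1.56 (0.984 to 2.52) and 1.61 times and Cox7a2l at 0.846 and 0.736 times, in S phase and G2/M cells. Ndufa12 in S phase cells was at 1.53 times (0.987 to 2.40) and Ndufa6 at 0.845 times (0.673 to 1.06), intervals that hold 1. In G2/M cells Ndufa1 was at 1.17 times (0.883 to 1.56) and Uqcrh at 0.867 times (0.750 to 1.00), with no call for either.

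LT-HSC markers stood at 1510 CPM in S phase, 1352 in G2/M and 2746 in comparison cells, with 14 of 15 measured markers below 1 in each class. Granulocyte markers stood at 6443 CPM in G2/M cells (11464 in aliquot 1, 4178 in aliquot 2) against 1608 CPM in comparison cells, and 12 of 13 were above 1 there with none at 0. In S phase against comparison cells they stood at 3387 against 912 CPM in aliquot 1 and at 806 against 1879 CPM in aliquot 2, opposite directions. Without cells holding 3 or more granulocyte UMIs the nuclear ratio was 1.24 in G2/M and 1.23 in S phase cells, and the mitochondrial ratio 0.872 and 0.907. Erythroid markers stood at 1737 CPM in S phase, 2034 in G2/M and 1717 in comparison cells, and megakaryocyte markers at 1407, 1608 and 1479 CPM. In S phase cells 6 of 12 erythroid and 5 of 10 megakaryocyte markers were above 1, and in G2/M cells 7 of 12 and 7 of 10. The part of the LT-HSC, erythroid and megakaryocyte markers in these ratios was not tested.

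Procr encodes a surface receptor used to enrich LT-HSCs. 274 cells had a Procr UMI among 500 and 3128 had none, with median depths of 1210.5 and 1430 UMIs. The 14 LT-HSC markers other than Procr stood at 3533 against 2412 CPM in aliquot 1 and 3257 against 2058 CPM in aliquot 2, with 11 of 14 above 1. Nuclear subunits were lower with Procr, at 12358 against 13777 CPM in aliquot 1 and 11767 against 13743 CPM in aliquot 2, 0.869 times (0.843 to 0.895). Mitochondrial mRNAs were higher, at 58490 against 51952 CPM in aliquot 1 and 51054 against 47678 CPM in aliquot 2, 1.09 times (1.08 to 1.11). The directions are opposite to those in cycling cells.

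The nuclear ratio with Procr was 0.863 for complex I, 0.868 for IV and 0.825 for V, each with an interval below 1. For complex II it was 0.954 (0.836 to 1.09) and for III 0.969 (0.885 to 1.06). The mitochondrial ratio was 1.01 (0.976 to 1.04) for complex I, with 1.1 in aliquot 1 and 0.964 in aliquot 2, and 1.08 for III, 1.13 for IV and 1.11 for V. Of 71 nuclear subunits at the floor 24 were lower, beside 18.6% of all 4508 genes, and 3 were higher, beside 18%. Their median log2 ratio was -0.22, against 0.02 over all genes. None of 11 mitochondrial members was called.

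Cox7b, a small subunit of complex IV, was lowest with Procr, at 16.5 against 143 CPM in aliquot 1 and 69.5 against 133 CPM in aliquot 2, 0.391 times (0.240 to 0.602). Its value rested on the random draw that thinned the cells, since another draw gave 0.687 (0.469 to 0.973), above Ndufc2 at 0.573. Ndufc2, a membrane arm subunit of complex I, stood at 132 against 226 CPM in aliquot 1 and 128 against 229 CPM in aliquot 2, 0.567 times (0.420 to 0.750). Ndufa4 was at 0.619 times (0.516 to 0.736), Cox5a at 0.679 times (0.525 to 0.866), Atp5g3 at 0.681 times (0.551 to 0.834) and Ndufa3 at 0.682 times (0.484 to 0.937). All were lower in Procr cells of both aliquots.

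Cox7a2l was again on the other side, at 677 against 561 CPM in aliquot 1 and 776 against 568 CPM in aliquot 2, 1.32 times (1.16 to 1.49), but with another draw of the thinning it was at 1.09 times (0.947 to 1.247) and was no longer called. mt-Co1 was at 1.14 times (1.1 to 1.18), mt-Co2 at 1.13 times (1.1 to 1.17) and mt-Atp6 at 1.11 times (1.07 to 1.14). Ndufb11 and Uqcrh, at 1.13 and 1.1 times, had intervals that include 1, and with another draw Ndufb11 was at 0.947 times.

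Most Procr cells were outside the cell cycle classes, 249 of 274, and within cells under both cell cycle thresholds the nuclear ratio was 0.893 (0.865 to 0.922) and the mitochondrial ratio 1.06 (1.04 to 1.07). Granulocyte markers stood at 355 CPM with Procr and 2515 CPM without, 12 of 13 were below 1, and Cd177, Elane, Ltf, Mcpt8 and Mpo were at 0. Without cells holding 3 or more granulocyte UMIs the ratios were 0.868 and 1.08. Against comparison cells paired by UMI total the nuclear ratio was 0.944 (0.907 to 0.983) and the mitochondrial ratio 1.05 (1.03 to 1.07). 11 of 67 nuclear subunits were then called lower and 6 higher, beside 17% and 19.6% of all genes. Of the 67, 32 lay above 1, with a median log2 ratio of -0.03. Cox7b (0.489 times, 0.276 to 0.842) and Ndufc2 (0.655 times, 0.451 to 0.944) kept intervals below 1, whereas Cox7a2l was at 1.05 times (0.887 to 1.24), Atp5g3 at 0.935 times (0.704 to 1.24), Cox5a at 0.875 times (0.624 to 1.22), Ndufa4 at 0.854 times (0.672 to 1.08) and Ndufa3 at 0.770 times (0.497 to 1.19). For these 5 members the difference with Procr was not detectable at this depth once UMI totals were matched.

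The 71 cells with a GFP UMI were set against 3331 without. A cell without a GFP UMI can still come from the GFP sort, since 1 transcript is often missed at this depth. Summed nuclear subunits had 12336 CPM with GFP and 13689 CPM without it in aliquot 1. In aliquot 2 the values were 13594 and 13607 CPM. Over both aliquots the ratio was 0.981 (0.936 to 1.03). Mitochondrial mRNAs stood at 54705 and 52394 CPM in aliquot 1 and at 47415 and 47915 CPM in aliquot 2, 0.989 times (0.965 to 1.01). Neither sum differed beyond counting error, and both intervals hold 1. By complex, the interval excluded 1 for the mitochondrial genes of complex IV alone, 0.948 (0.914 to 0.983), where aliquot 1 was at 1.05 and aliquot 2 at 0.938.

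With GFP 35 of 83 nuclear subunits reached the floor. 5 were higher, beside 19.1% of all 1456 genes, and 5 were lower, beside 14%, with a median log2 ratio of -0.02 against 0.06 over all genes. For the higher calls this was a smaller share than over all genes, and for the lower calls a near-equal one. The members named next are therefore the ends of a ranking and not a result for the family. The highest was Ndufb7, at 170 against 74.2 CPM in aliquot 1 and 141 against 89.9 CPM in aliquot 2, 1.71 times (1.04 to 2.67). Atp5l (subunit g of ATP synthase) was at 1.48 times (1.01 to 2.11), Atp5k at 1.36 times (0.973 to 1.84), the coupling factor Atp5j at 1.35 times (1.01 to 1.78), Sdha at 1.34 times (0.966 to 1.82) and Cox5b at 1.19 times (0.864 to 1.61).

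The lowest with GFP were Ndufb8 at 0.657 times (0.358 to 1.11), Sdhd at 0.701 times (0.414 to 1.11), Ndufa6 at 0.741 times (0.491 to 1.08), Atp5j2, subunit f of ATP synthase, at 0.746 times (0.433 to 1.20), Ndufa3 at 0.748 times (0.417 to 1.24) and Cox7c at 0.802 times (0.465 to 1.29). All 6 intervals include 1. In cells with at least 2 GFP UMIs Cox7c was on the other side, at 1.39 times (0.758 to 2.35), and Atp5j2 at 0.926 times. Cox7a2l was at 0.855 times (0.662 to 1.09) and Cox5a at 0.985 times (0.680 to 1.38). With GFP, granulocyte markers stood at 248 CPM against 2417 CPM, LT-HSC markers at 2722 against 2380 CPM, and median UMIs at 1702 against 1412. All 13 granulocyte markers were below 1, of which Cd177, Ctsg, Lcn2, Ltf, Mcpt8, Mpo, Prss34 and S100a8 were at 0.

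Genes of related pathways, in lists set by symbol, were counted by the same rule. The shares of all genes called higher and lower, beside which each count below is to be read, were 22.7% and 23% in S phase, 22% and 24.5% in G2/M, 18% and 18.6% with Procr and 19.1% and 14% with GFP. Cytochrome c and its partners outside the prefixes were high in S phase cells. Etfb, the electron transfer flavoprotein subunit beta, was at 2.11 times (1.75 to 2.52), Cycs, which encodes cytochrome c, at 1.75 times (1.28 to 2.35) and Cyc1, cytochrome c1 of complex III, at 1.62 times (1.3 to 2.00). With Etfdh they were 4 of 6 measured members called higher, beside 22.7% of all genes, and none was lower. In G2/M cells 3 of 6 were higher, beside 22%, and with Procr 2 of 6 were lower, beside 18.6%, Etfb at 0.638 times (0.443 to 0.891) and Cyc1 at 0.767 times (0.535 to 1.07).

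The mitochondrial ribosome, which translates the 13 mitochondrial mRNAs, had 29 of 62 proteins higher (beside 22.7% of all genes) and 4 lower (beside 23%) in S phase cells, with a median log2 ratio of 0.32. In G2/M cells 20 of 73 were higher, a share close to the 22% of all genes, and 4 lower, beside 24.5% (median 0.23), and with Procr 5 of 42 were higher and 13 lower (median -0.15, with 0.02 in aliquot 1 and -0.30 in aliquot 2). Another list held genes that copy the mitochondrial genome or take part in its expression, of which 15 were found. In S phase cells 8 of them could be counted, 1 higher (Ssbp1) and 2 lower (Mtpap and Polg). In G2/M cells 2 of 8 were higher (Lrpprc and Polg) and 1 lower (Tfam), and with Procr 2 of 6 were higher (Mtpap and Polg) and 0 lower. Tfam, which packages and activates mitochondrial DNA, was at 0.925 times in S phase (0.726 to 1.17) and 0.707 times in G2/M cells (0.557 to 0.886). Polg, the mitochondrial DNA polymerase, was at 2.26 times with Procr (1.43 to 3.44).

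Among nuclear regulators 2 of 7 were higher and 2 lower in G2/M cells. Nrf1 was at 1.98 times (1.42 to 2.74) and Gabpa, the ETS factor subunit, at 1.64 times (1.21 to 2.19), while Mycn was called lower and Myc was at 0.713 times (0.604 to 0.838). In S phase cells 1 of 6 was higher, Hif1a, and 1 lower, Mycn, and Gabpa was at 0.964 times (0.618 to 1.45). With Procr 1 of 5 was higher, Yy1 at 1.78 times (1.24 to 2.51), and 0 lower. With GFP 2 reached the floor, of which Mycn was higher. These are levels of the factors' mRNAs and no measure of their binding.

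In the TCA cycle, which feeds NADH and succinate to the chain, 5 of 17 genes were higher and 1 lower in S phase cells, 7 higher and 0 lower in G2/M cells, and with Procr 1 of 14 was higher and 6 lower. Idh2, the mitochondrial NADP-linked isocitrate dehydrogenase, was at 1.67 times (1.42 to 1.97) in S phase, 1.39 times (1.19 to 1.62) in G2/M and 0.550 times (0.399 to 0.741) in Procr cells. Glycolysis genes were split in S phase cells, 5 of 14 higher and 2 lower, and in G2/M cells 1 of 17 was higher and 9 lower. Aldoa, which cleaves fructose bisphosphate, was at 0.413 times (0.315 to 0.533) and Ldhb, a lactate dehydrogenase subunit, at 0.662 times (0.487 to 0.884) in G2/M cells. With Procr 1 of 13 glycolysis genes was higher, Ldhb at 1.64 times (1.21 to 2.19), and 1 was lower, Eno1. Of the 13, 5 lay above 1. Of the genes that move ATP and phosphate or guard the organelle, 4 of 12 were higher and 0 lower in S phase cells. In G2/M cells 4 of 13 were higher and 2 lower, Prdx3 and Sod2, and with Procr 0 of 11 were higher and 3 lower. The ADP/ATP carrier Slc25a5 was at 1.79 times (1.61 to 2.00) in S phase, 1.55 times (1.40 to 1.72) in G2/M and 0.641 times (0.526 to 0.774) in Procr cells. Atpif1, the inhibitor of ATP synthase run in reverse, was at 1.63, 1.46 and 0.649 times in the same order. Assembly factors outside the prefixes had 6 of 17 higher and 1 lower in S phase cells, 2 of 21 higher and 5 lower in G2/M cells, and 0 of 8 called with Procr. With GFP few list genes reached the floor: 7 of the TCA cycle, with 1 higher and 3 lower, and 9 of the ATP exchange list, with Slc25a3, Slc25a4 and Ucp2 lower. These pathway values were not computed against cells paired by UMI total.

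The genes whose level followed the nuclear subunit sum most closely were found over 12 cell sets, formed by aliquot, cell cycle class and Procr. They were Hint1 (Pearson r = 0.947), H2afy (0.937), Uhrf1 (0.936), Tipin (0.929) and 2810417H13Rik (0.922), on log2 CPM with a pseudocount of 10. Uhrf1 and Tipin belong to the S phase list that formed the sets. The nuclear and mitochondrial sums themselves had r = -0.763 over the 12 sets. These sets share 1 pool and hold between 4 and 1334 cells each, so r is a description of these sets. Across single thinned cells the same sums had r = -0.0861, with -0.0948 in aliquot 1 and -0.0784 in aliquot 2. The nuclear sum there averaged 6.55 UMIs per cell. With so few UMIs per cell, counting error by itself brings such an r nearer to none. The value therefore does not show how strong the opposition was from cell to cell.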

How the data were processed

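Single-cell mRNA was counted in 2 technical aliquots of 1 pool. The deposited values are raw UMI counts per gene and barcode, with no normalization by the authors, in whole numbers. Bowtie 1.1.1, RSEM 1.3.0, SAMtools 1.3.1 and the build GRCm38 are listed in the submitters' processing notes. Roles, strand use and settings were not given in the sources used here. Strand matters for mt-Nd6, whose reads cannot be told from antisense RNA without it. The members were chosen by symbol, and members and lists were chosen with earlier results of these data known. From the counts, UMIs were summed over cell sets and scaled to CPM (1e+06), with exact Poisson intervals for levels and exact conditional binomial 95% intervals for ratios, checked on simulated counts. No test between groups was possible with 1 pool, and cells are not replicates. A member was named in a split if among the 6 highest or 6 lowest ratios with at least 50 UMIs (20 for GFP) observed or expected in the smaller set and 1 direction in both aliquots. Levels were named for all mt- and Sdh genes, the extremes of each complex and paralogs. In the splits mt-Nd1, Ndufs3, Uqcrq in G2/M cells, Cox7a2l and Cox5a with GFP, and the pathway examples were named after their values were seen. GFP was left out of totals. Positions came from GENCODE vM21 for 112 of 113 members (Atp5sl had none). The alternatives are given in the closing section. Software was Python 3.11.15 with numpy 2.4.6, scipy 1.17.1, pandas 2.3.3 and matplotlib 3.10.9.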

Additional observations from a re-analysis of the deposited data

Results flagged for a closer look

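Barcodes under 200 UMIs, which enter no comparison above, held a larger mitochondrial share than kept cells. In aliquot 1 the 201 such barcodes had 38.4% mt- UMIs, and in aliquot 2 the 6291 such barcodes had 11.3%, while the median kept cell had 5.27% and 4.80%. Nuclear subunits in these barcodes stood at 7619 and 12498 CPM.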

How the results depend on the processing

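Other settings changed sizes more than directions: all 12 alternatives kept the S phase, G2/M and Procr sums on the same side of 1, and the GFP sums did so in 9 (nuclear) and 10 (mitochondrial) of 11. With at least 1000 UMIs per cell the mitochondrial ratio was 0.916 in S phase, 0.883 in G2/M and 1.07 in Procr cells, and nuclear complex V stood at 3924 CPM. Weighting cells equally gave a nuclear ratio of 0.911 with Procr, and another draw of the thinning 1.21 in S phase. Stricter cell cycle thresholds gave nuclear ratios of 1.20 in S phase and 1.15 in G2/M and a mitochondrial ratio of 0.879 in G2/M. Procr cells under both thresholds had a mitochondrial ratio of 1.06, and 2 or more GFP UMIs a nuclear ratio of 1.06. Leaving out 1 aliquot gave 0.887 to 0.918 (S phase, mitochondrial), 0.856 to 0.897 (Procr, nuclear), 1.07 to 1.13 (Procr, mitochondrial), 0.901 to 0.999 (GFP, nuclear) and 0.990 to 1.04 (GFP, mitochondrial). The same gave summed levels of 3336 to 3556, 640 to 717, 1347 to 1420, 4216 to 4429 and 3769 to 3848 CPM for nuclear complexes I to V, and 11375 to 11850, 3941 to 4461, 22147 to 24337 and 10438 to 11779 CPM for mitochondrial complexes I, III, IV and V. With no limit on mt- UMIs there were 3.85 mitochondrial UMIs per nuclear subunit UMI and mitochondrial complex I stood at 12270 CPM. With Ndufa4 placed in complex I, nuclear complexes I and IV stood at 4023 and 3747 CPM. At a fold of 1.5 the nuclear subunits called higher and lower were 11 and 0 of 76 in S phase (all genes 12.1% and 12.8%). The share called higher in S phase was then close to that of all genes. In G2/M cells they were 14 and 2 of 76 (11.9% and 13.3%), in Procr cells 1 and 10 of 71 (8.21% and 8.94%). In GFP cells they were 1 and 1 of 35 (9.48% and 5.98%). At 50 UMIs the nuclear subunits called higher and lower were 1 and 14 with Procr (13.5% and 17%) and 1 and 0 with GFP (13% and 8.92%). 3 alternatives were chosen after seeing the data. Without shared barcode names no sum ratio of the splits moved beyond its counting interval. Without the 5% of cells with most UMIs the G2/M ratios were 1.17 and 0.893, nuclear and mitochondrial, and the mitochondrial ratio with Procr 1.07. Against cells matched on UMI total the nuclear and mitochondrial ratios were 1.15 and 0.936 in S phase, 1.12 and 0.925 in G2/M and 0.944 and 1.05 in Procr cells. The nuclear subunits called higher were then 20 of 76, 18 of 76 and 6 of 67 (all genes 20.3%, 19.1% and 19.6%). In Procr cells 11 of 67 were lower (all genes 17%). Counting error, 1 pool and the depth of aliquot 1 limit the precision, and doublets were not removed. No paired analysis was possible because the 2 aliquots are 1 group and every result comes from no test.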
